A study of Homo sapiens with 9 samples.

Results

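Selected genes of type I and type III interferon, and of the receptors that bind these interferons, were described across 3 siRNA conditions. The cells were esophageal squamous cell carcinoma (ESCC) cells. The set was given by name and held 8 genes of the 60605 in the deposited table, each with 1 row. It comprised 4 interferon genes (IFNB1, IFNL1, IFNL2 and IFNL3) and 4 receptor genes (IFNAR1, IFNAR2, IFNLR1 and IL10RB). The 9 RNA-seq libraries came from TE13, a long-established line of human ESCC cells. The cells had received a control siRNA (3 libraries) or 1 of 2 siRNAs against PARylator, named siRNA.1 and siRNA.2 (3 libraries each). PARylator is the long noncoding RNA LINC00885, and no further treatment of any condition is named in the labels. Each condition is a transfection of siRNA into a single cell line, and neither the time between transfection and harvest nor the sequence of the control siRNA was given in the sources used here. The study describes the 3 libraries of a condition as repeats of the experiment, and the labels do not say whether these were separate cultures, so p-values measure the spread between these libraries, which may in part be technical.

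IFN-β, the product of IFNB1, is a secreted type I interferon that binds a receptor made of the IFNAR1 and IFNAR2 chains, which nearly all cells carry. The type III interferons, IFN-λ1 to IFN-λ3, bind IFNLR1, a chain found mostly on epithelial cells, together with IL10RB, a chain shared with the receptors of IL-10 and IL-22. Both receptors signal through JAK1 and TYK2 to transcription factors that switch on the interferon-stimulated genes. Transcription of the interferon genes themselves is low at rest and is switched on by IRF and NF-κB factors downstream of sensors of foreign or misplaced nucleic acid.

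In the GENCODE release 44 annotation of GRCh38, IFNB1 lies on chr9:21077104-21077942 (minus strand). The 3 IFN-λ genes sit within 55219 bases of chromosome 19, with IFNL3 at chr19:39243455-39245250 (minus strand), IFNL2 at chr19:39268396-39270188 (plus strand) and IFNL1 at chr19:39296407-39298673 (plus strand). The other receptor genes but IFNLR1 share a stretch of chromosome 21, all on the plus strand, in the order IFNAR2 (chr21:33205282-33265675), IL10RB (chr21:33266367-33311420) and IFNAR1 (chr21:33324387-33359864). IFNLR1 lies on its own at chr1:24154168-24187959 (minus strand). The deposited start or end of IFNL3, IFNAR1 and IL10RB differed from that release.

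The 250 bases before the annotated start of the interferon genes are shown for their IRF motifs. The IFN-λ genes hold both the IRF pair and the IRF core defined below. IFNB1 holds the core but not the pair, and also holds an NF-κB motif. IRF and NF-κB factors are known to act on interferon genes through motifs of these kinds. The sequences are those of RefSeq on GRCh38.p14, which held 7 of the 8 genes, and each is written 5′ to 3′ on the strand of its gene. They cover chr9:21077943-21078192 (minus strand) for IFNB1, chr19:39296157-39296406 (plus strand) for IFNL1 and chr19:39268146-39268395 (plus strand) for IFNL2. Capitals mark matches on either strand to 3 motifs: the IRF pair (GAAA, any 2 bases, GAAA), the shorter IRF core AANNGAAA, and the NF-κB motif (GGG, any 3 bases, TTCC). The IRF core was added to the motifs after the sequences had been seen, and without it IFNB1 would hold no IRF match.
IFNB1: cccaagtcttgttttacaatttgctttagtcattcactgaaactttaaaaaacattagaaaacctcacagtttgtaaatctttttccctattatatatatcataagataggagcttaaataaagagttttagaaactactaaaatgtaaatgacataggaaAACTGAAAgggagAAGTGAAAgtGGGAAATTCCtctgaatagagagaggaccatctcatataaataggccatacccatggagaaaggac
IFNL1: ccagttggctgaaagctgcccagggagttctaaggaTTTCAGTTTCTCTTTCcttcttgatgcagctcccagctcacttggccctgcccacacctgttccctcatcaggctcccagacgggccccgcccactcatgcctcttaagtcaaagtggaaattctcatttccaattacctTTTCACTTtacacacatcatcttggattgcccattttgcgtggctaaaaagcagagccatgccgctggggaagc
IFNL2: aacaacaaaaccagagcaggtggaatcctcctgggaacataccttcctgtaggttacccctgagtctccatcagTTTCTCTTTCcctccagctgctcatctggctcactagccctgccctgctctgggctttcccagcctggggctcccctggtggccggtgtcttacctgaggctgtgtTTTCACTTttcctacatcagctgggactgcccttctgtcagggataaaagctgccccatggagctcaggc

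IFNB1 held the IRF core at -89 and -76 and the NF-κB motif at -66, counted from the start of transcription to the first base of each match, so that these 3 matches stood within a short stretch. IFNL1 held 2 overlapping IRF pairs, at -214 and -208, and a further IRF core at -74. IFNL2 held an IRF pair at -176 and a further IRF core at -70. The core also matched inside each of the longer matches of the IFN-λ genes. No window of the IFN-λ genes held the NF-κB motif. The window of IFNL3 was the same as that of IFNL2 in 249 of 250 bases, with the substitution C31T (IFNL2 base first, position counted from 1 at the 5′ end of the window), and held the same matches. IFNB1 also held TTCNNNGAA, the form bound by STAT factors, at -218 and TATAAA at -31. In the same window of 35116 promoters of that table, the IRF pair was found in 3.02%, the IRF core in 20.3%, the NF-κB motif in 5.67%, TTCNNNGAA in 6.57% and TATAAA in 10.7%. Of the receptor genes, IFNLR1 held TTCNNNGAA at -238, and the windows of IFNAR1 and IL10RB held none of these motifs, nor did any of the 7 windows hold TGANTCA, the AP-1 motif, which 6.57% of promoters held.

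**Figure D1:**
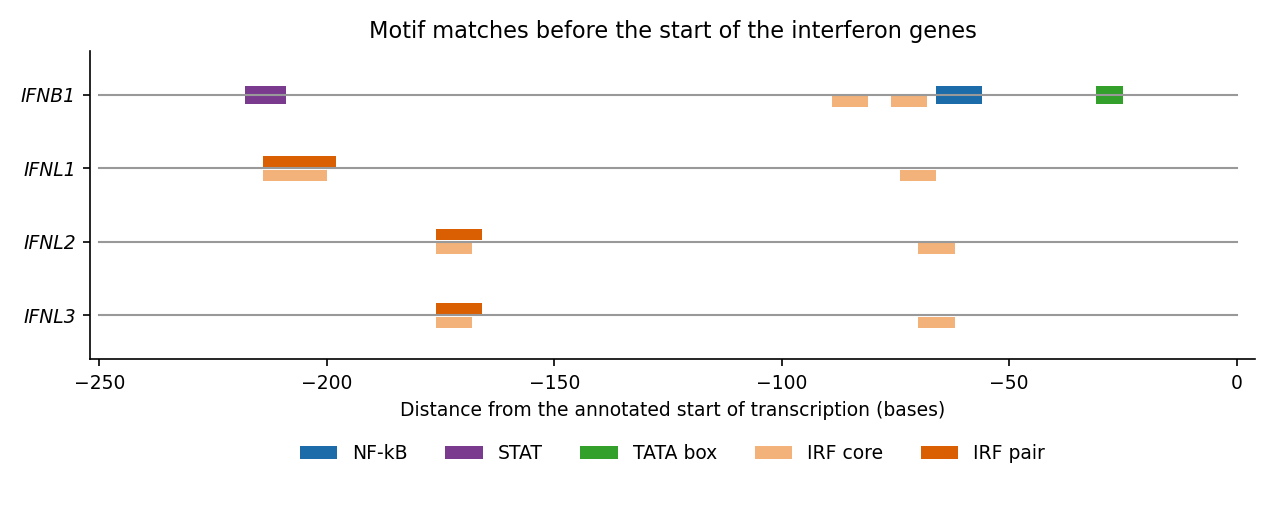
Positions of motif matches in the 250 bases before the start of transcription of each interferon gene. The x axis is the distance from the start in bases, each line is a gene and each coloured block is a match to the motif type in the legend. The IFN-λ genes hold an IRF pair far from the start and an IRF core near it, and IFNB1 holds its IRF cores next to the NF-κB match.

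Total counts on genes lay between 15337917 and 17899074 in the control libraries, between 15374616 and 17762752 with siRNA.1 and between 19213164 and 22559998 with siRNA.2. The share of mitochondrial genes in the counts was 7.46% to 7.66% in the control libraries, 4.99% to 5.06% for siRNA.1 and 5.54% to 5.56% for siRNA.2, and whether this shift bears on the results below was not tested. LINC00885 itself was read 6, 7 and 12 times in the control libraries, 4, 5 and 2 times in those of siRNA.1, and 2, 0 and 4 times in those of siRNA.2. On the log2 scale its difference from control was -1.21 (SE 0.95) with siRNA.1 and -2.33 (SE 1.01) with siRNA.2. Neither passed edgeR's quasi-likelihood test (adjusted p 0.376 and 0.0659). A fall of the targeted RNA was thus not detectable by this test at this depth. The paper itself reports knockdown of PARylator by siRNA in TE13 cells, measured by qPCR. All 9 markers of squamous epithelium had a mean of at least 1 FPKM in every condition, where FPKM is the count per kilobase of exonic length, scaled to a library of 1000000 counts on genes. Their summed level was 923 to 930.0 FPKM in the control libraries, 676 to 708 for siRNA.1 and 666 to 689 for siRNA.2.

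All 4 interferon genes were near the limit of detection in control cells and were higher in every library of both PARylator siRNAs. Because IFNB1, IFNL2 and IFNL3 were picked for this rise, their levels against control are given as a description without a test, and the same was done for IFNL1. Ratios are summed counts per total count of the condition, with exact (Clopper-Pearson) 95% intervals that cover counting error only. The comparisons of siRNA.1 and siRNA.2 with control share the control libraries. In these bulk RNA samples, a change in the number of cells that transcribe a gene and a change in RNA per cell cannot be told apart.

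IFNB1 had 2, 1 and 1 counts in control, 4, 11 and 13 with siRNA.1 and 14, 21 and 28 with siRNA.2. These correspond to 0.16, 0.08 and 0.07 FPKM in control, 0.27, 0.85 and 0.89 FPKM with siRNA.1 and 0.84, 1.3 and 1.48 FPKM with siRNA.2. The first siRNA.1 library stood lowest among the siRNA libraries but still above each control library. The ratio of counts to control was 6.75 (95% interval 2.36 to 26.5) for siRNA.1 and 12.5 (4.64 to 47.3) for siRNA.2.

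IFNL1 was the most abundant interferon gene of the set in control cells, with 8, 3 and 8 counts. It had 32, 53 and 78 counts with siRNA.1 and 62, 66 and 80 with siRNA.2. Per length, the level went from 0.67, 0.25 and 0.58 FPKM in control to 2.32, 4.45 and 5.76 FPKM with siRNA.1, and 4.04, 4.43 and 4.58 FPKM with siRNA.2. The siRNA.2 libraries lay close together, whereas the siRNA.1 libraries spread more widely, and none overlapped the control range. The ratio to control was 8.28 (5.13 to 14.1) for siRNA.1 and 8.68 (5.42 to 14.7) for siRNA.2.

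IFNL2 was almost silent in control cells, with 0, 0 and 1 counts, against 22, 32 and 56 with siRNA.1 and 41, 36 and 42 with siRNA.2. Its level was 0, 0 and 0.06 FPKM in control, 1.3, 2.19 and 3.37 FPKM with siRNA.1 and 2.18, 1.97 and 1.96 FPKM with siRNA.2. The siRNA and control libraries were far apart. The ratio to control rested on a single control count and was accordingly wide, at 106 (18.7 to 4230.3) for siRNA.1 and 94.4 (16.6 to 3758) for siRNA.2. Without the third control library the control count was 0. Set against a floor of 3 counts over the remaining control libraries, the ratio was 22.4 for siRNA.1 and 19.9 for siRNA.2. These 2 values leave out the counting error of the siRNA libraries, so they are not strict lower bounds.

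IFNL3 had 5, 3 and 0 counts in control, 41, 48 and 37 with siRNA.1 and 85, 49 and 45 with siRNA.2. Its FPKM values were 0.42, 0.25 and 0 in control, 2.99, 4.05 and 2.75 with siRNA.1 and 5.57, 3.31 and 2.59 with siRNA.2. The first siRNA.2 library was the highest for this gene, and again no siRNA library reached down to the control range. The ratio to control was 15.2 (7.48 to 36.0) for siRNA.1 and 17.7 (8.81 to 41.7) for siRNA.2. Of the 8 control counts, 5 were in the first library, and the ratios were 27.8 and 32.5 without that library and 9.63 and 11.2 without the third control library.

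**Figure D2:**
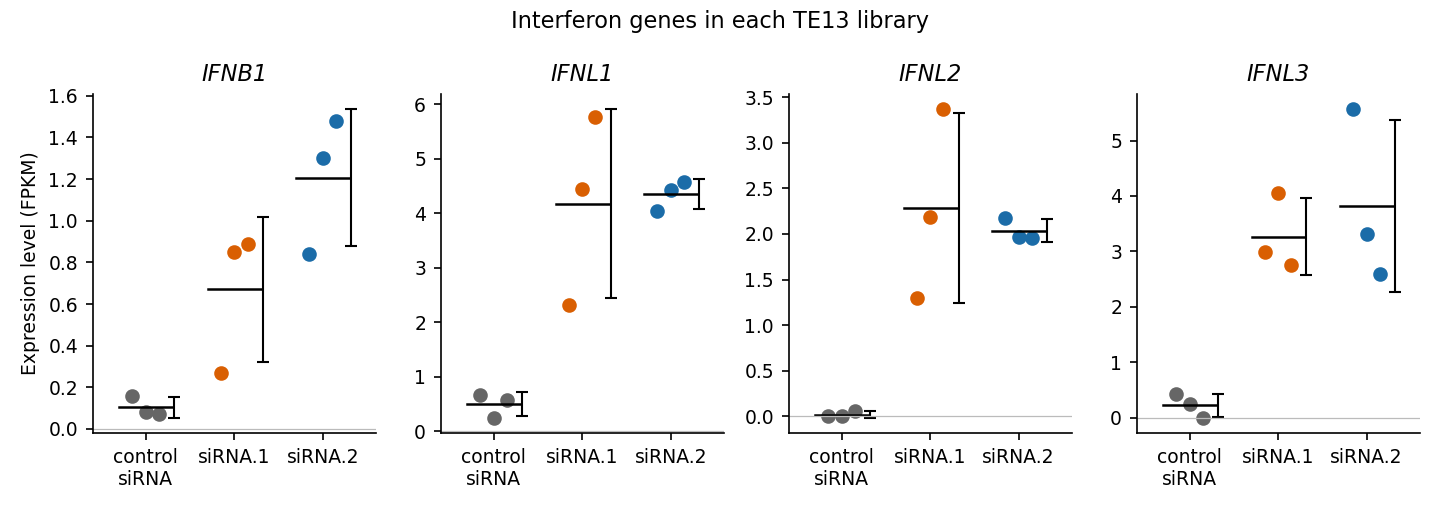
Expression level (FPKM, y axis) of each interferon gene by condition (x axis). Points are libraries in the order of their replicate number, horizontal lines are means and error bars are the SD (n = 3), and the 6 siRNA libraries lie above the 3 control libraries for each of the 4 genes.

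IFNL2 and IFNL3 are near-identical copies, so reads from one could be assigned to the other or dropped, and the split between them is uncertain. Of the 50-base windows of IFNL2 transcripts, 37.8% also occurred in IFNL3, as did 14.6% of the 100-base windows and 5.11% of the 150-base windows, whereas no such window was shared with IFNL1 or IFNB1. Read length and the handling of reads with several matches were not given in the sources used here. Counted together, IFNL2 and IFNL3 had 5, 3 and 1 counts in control, 63, 80 and 93 with siRNA.1 and 126, 85 and 87 with siRNA.2. The ratio of this sum to control was 25.3 (13.1 to 56.0) for siRNA.1 and 26.3 (13.6 to 58.0) for siRNA.2, and 39.0 and 40.5 without the first control library.

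The 4 interferon genes summed to 15, 7 and 10 counts in the control libraries, 99, 144 and 184 with siRNA.1 and 202, 172 and 195 with siRNA.2. Scaled to a library of 1000000 counts (CPM), this was 0.978, 0.449 and 0.559 in control, 5.57, 9.37 and 10.5 with siRNA.1 and 10.2, 8.95 and 8.64 with siRNA.2. The lowest siRNA library was therefore well above the highest control library. The ratio of the sum to control was 12.9 (8.98 to 19.1) for siRNA.1 and 14.1 (9.87 to 20.8) for siRNA.2. For all 4 genes all 3 libraries of each siRNA lay above all 3 control libraries, a relation that held for 19% of all 21397 genes tested with siRNA.1 and for 20.4% with siRNA.2. Since the genes were picked by this contrast, nothing is read from that count.

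**Figure D3:**
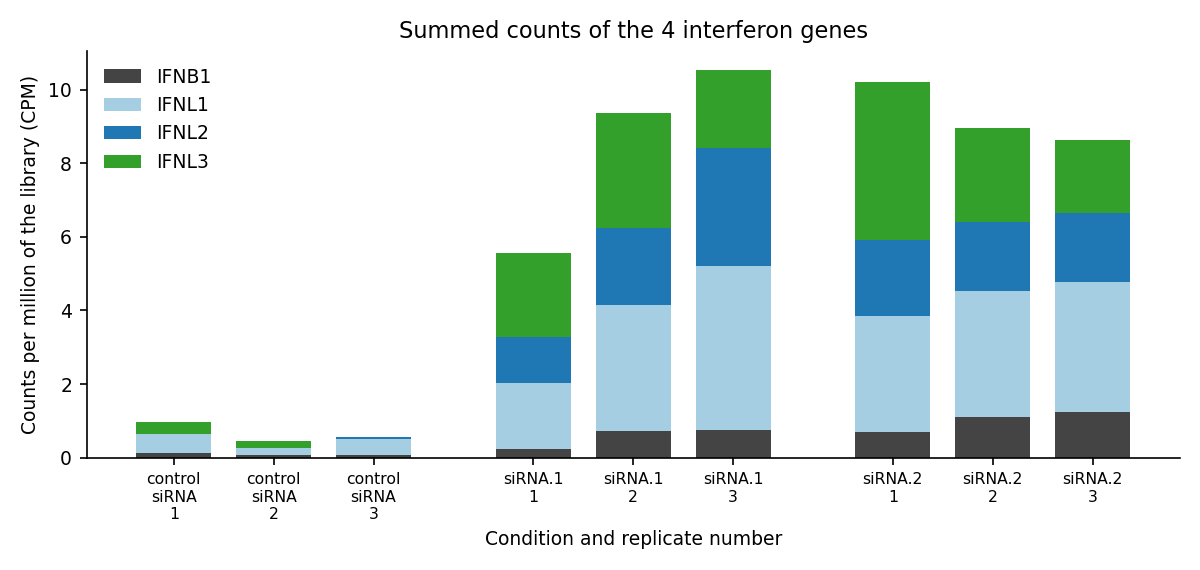
Counts of the 4 interferon genes scaled to a library of 1000000 counts (CPM, y axis, from 0), stacked by gene for each library (x axis, condition and replicate number). The control libraries stand at 0.449 to 0.978 CPM and the siRNA libraries at 5.57 to 10.5 CPM, most of it from the IFN-λ genes.

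The make-up of the sum is given as a description, because the genes were picked by the contrast with control. The control shares rest on few counts, and the split between IFNL2 and IFNL3 is uncertain. IFNL1 held 59.4% of the 32 interferon counts in control (exact 95% interval 40.6% to 76.3%), 38.2% of 427 with siRNA.1 (33.5% to 43.0%) and 36.6% of 569 with siRNA.2 (32.6% to 40.7%). IFNL2 held 3.13% in control (0.0791% to 16.2%), 25.8% with siRNA.1 (21.7% to 30.2%) and 20.9% with siRNA.2 (17.6% to 24.5%). IFNL3 held 25.0% in control (11.5% to 43.4%), 29.5% with siRNA.1 (25.2% to 34.1%) and 31.5% with siRNA.2 (27.7% to 35.5%). IFNB1 held 12.5% in control (3.51% to 29.0%), 6.56% with siRNA.1 (4.40% to 9.34%) and 11.1% with siRNA.2 (8.61% to 13.9%). IFN-λ transcripts were thus the bulk of the counts in each condition, and these shares carry counting error only.

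The siRNAs were compared with each other to ask whether they differed in the level of the interferon genes. This contrast was not itself used to choose the genes. However, IFNB1, IFNL2 and IFNL3 were picked for a rise with both siRNAs, and IFNL2 passed the FPKM filter only through the siRNA libraries. Such a choice can favour genes that are alike between the siRNAs, and its effect was not tested. By edgeR's quasi-likelihood test, with Benjamini-Hochberg adjustment over all genes, 0 of 4 interferon genes passed at 0.05, against 12.2% of all genes tested. The count was also 0 at an unadjusted p under 0.05, and 0 after adjustment with limma. DESeq2 gave an adjusted p for 3 of the 4, of which 0 passed, and none for IFNB1. At a share of 12.2%, a count of 0 among 4 genes says nothing particular about the interferon genes. IFNB1 had the largest difference, 0.88 on the log2 scale (95% interval -0.29 to 2.04, adjusted p 0.428), with siRNA.2 the higher. The differences were 0.08 (-0.45 to 0.61, adjusted p 0.922) for IFNL1, -0.15 (-0.84 to 0.54, adjusted p 0.876) for IFNL2 and 0.24 (-0.35 to 0.83, adjusted p 0.726) for IFNL3. These intervals leave room for differences of the size of the point estimates and larger, and the libraries of the siRNAs overlapped for each gene. The spread between libraries was itself uneven, with a coefficient of variation of CPM for IFNL1 of 41.5% with siRNA.1 and 6.37% with siRNA.2, for IFNL2 of 45.4% and 6.07%, and for IFNL3 of 21.2% and 40.7%.

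The receptor genes were all transcribed in control cells, at higher levels than the interferon genes. IFNAR1, the first chain of the type I receptor, had 1494, 1377 and 1694 counts in control, 1643, 1364 and 1535 with siRNA.1 and 1684, 1706 and 1834 with siRNA.2. Its level was 14.16, 12.84 and 13.76 FPKM in control, 13.45, 12.90 and 12.78 FPKM with siRNA.1 and 12.36, 12.91 and 11.82 FPKM with siRNA.2. IFNAR1 was the highest of the 8 genes in each of the 9 libraries, and its ranges overlapped between conditions.

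IFNAR2, the chain that binds type I interferon most tightly, had 64, 77 and 76 counts in control, 86, 86 and 94 with siRNA.1 and 77, 82 and 88 with siRNA.2. Per length these were 0.85, 1.00 and 0.86 FPKM in control, 0.98, 1.14 and 1.09 FPKM with siRNA.1 and 0.79, 0.87 and 0.79 FPKM with siRNA.2. All siRNA.2 libraries were below all siRNA.1 libraries, a relation that held for 12% of all genes tested, and both overlapped the control range. The ratio of IFNAR1 to IFNAR2 in FPKM was 15.2 ± 2.04 in control, 12.3 ± 1.29 with siRNA.1 and 15.1 ± 0.435 with siRNA.2 (SD, n = 3).

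IFNLR1, the chain particular to the type III receptor, had 200, 178 and 271 counts in control, 257, 208 and 220 with siRNA.1 and 184, 241 and 302 with siRNA.2. Its level was 2.64, 2.31 and 3.06 FPKM in control, 2.93, 2.74 and 2.55 FPKM with siRNA.1 and 1.88, 2.54 and 2.71 FPKM with siRNA.2. The 3 conditions overlapped throughout.

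IL10RB, the shared second chain, had 116, 160 and 189 counts in control, 132, 95 and 140 with siRNA.1 and 104, 140 and 148 with siRNA.2. Per length, the level was 1.67, 2.27 and 2.33 FPKM in control, 1.64, 1.37 and 1.77 FPKM with siRNA.1 and 1.16, 1.61 and 1.45 FPKM with siRNA.2. The siRNA.2 libraries all lay below the control libraries, as they did for 19.4% of all genes tested, whereas 1 siRNA.1 library reached above the lowest control library. The ratio of IFNLR1 to IL10RB in FPKM was 1.3 ± 0.28 in control, 1.74 ± 0.28 with siRNA.1 and 1.69 ± 0.16 with siRNA.2 (SD, n = 3).

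**Figure D4:**
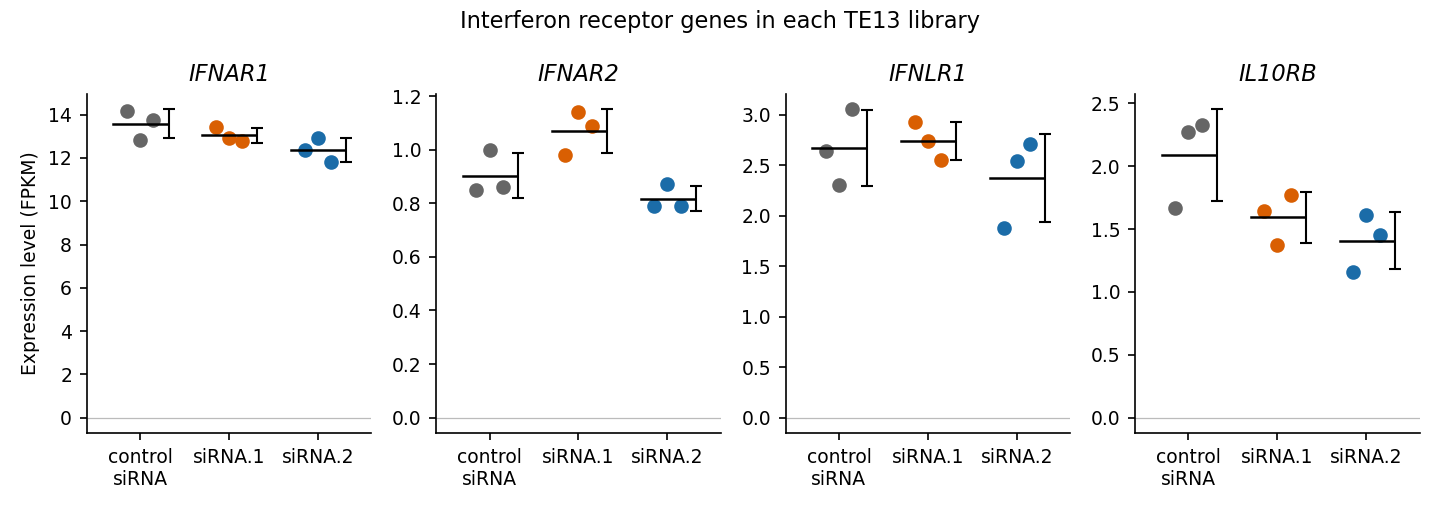
Expression level (FPKM, y axis from 0) of each receptor gene by condition (x axis). Points are libraries in the order of their replicate number, lines are means and error bars are the SD (n = 3), and IL10RB is the gene whose siRNA.2 libraries, at 1.16 to 1.61 FPKM, lie below its control libraries, at 1.67 to 2.33 FPKM.

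Against control, IL10RB fell with both siRNAs and IFNAR1 fell slightly with siRNA.2, by edgeR's quasi-likelihood test. The calls of IL10RB with siRNA.1 and of IFNAR1 were lost in several alternatives, given below. With siRNA.1, 1 of 4 receptor genes passed, against 30.2% of all genes tested. IL10RB changed by -0.42 on the log2 scale (SE 0.16, adjusted p 0.0308). With siRNA.2, 2 of 4 passed, against 30.9% of all genes tested. IL10RB changed by -0.58 (SE 0.16, adjusted p 0.00115) and IFNAR1 by -0.15 (SE 0.06, adjusted p 0.0346). The number of receptor genes called is too small to set apart from those background shares.

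The fall of IL10RB with siRNA.1 did not pass without the second control library (adjusted p 0.127), the third control library (0.187) or the second siRNA.1 library (0.176), and its adjusted p was 0.0294 to 0.170 over the other alternatives. The fall with siRNA.2 passed without any single library and missed the threshold with limma (0.0502 and 0.0516). The change of IFNAR1 with siRNA.2 did not pass without the first control library (adjusted p 0.172), the third control library (0.111), the first siRNA.2 library (0.0923) or the third siRNA.2 library (0.184). It also missed the threshold with no filter on low values (0.0780), with limma (0.0859 and 0.0846) and with a replicate block (0.0529).

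IFNAR2 and IFNLR1 did not pass with either siRNA. On the log2 scale, IFNAR2 differed from control by 0.22 (95% interval -0.19 to 0.62, adjusted p 0.485) with siRNA.1 and by -0.16 (-0.57 to 0.25, adjusted p 0.639) with siRNA.2. IFNLR1 differed by 0.005 (-0.24 to 0.25, adjusted p 0.993) with siRNA.1 and by -0.18 (-0.43 to 0.07, adjusted p 0.315) with siRNA.2. IFNAR1 with siRNA.1 stood at -0.09 (-0.20 to 0.03, adjusted p 0.287). Between the siRNAs, 0 of 4 receptor genes passed by edgeR, with 0 at an unadjusted p under 0.05 and 0 with DESeq2 and with limma, against 12.2% of all genes tested. At that share, a count of 0 among 4 genes says nothing particular about the receptor genes. The difference of siRNA.2 from siRNA.1 furthest from 0 was that of IFNAR2, at -0.37 (-0.77 to 0.03, adjusted p 0.278).

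**Figure D5:**
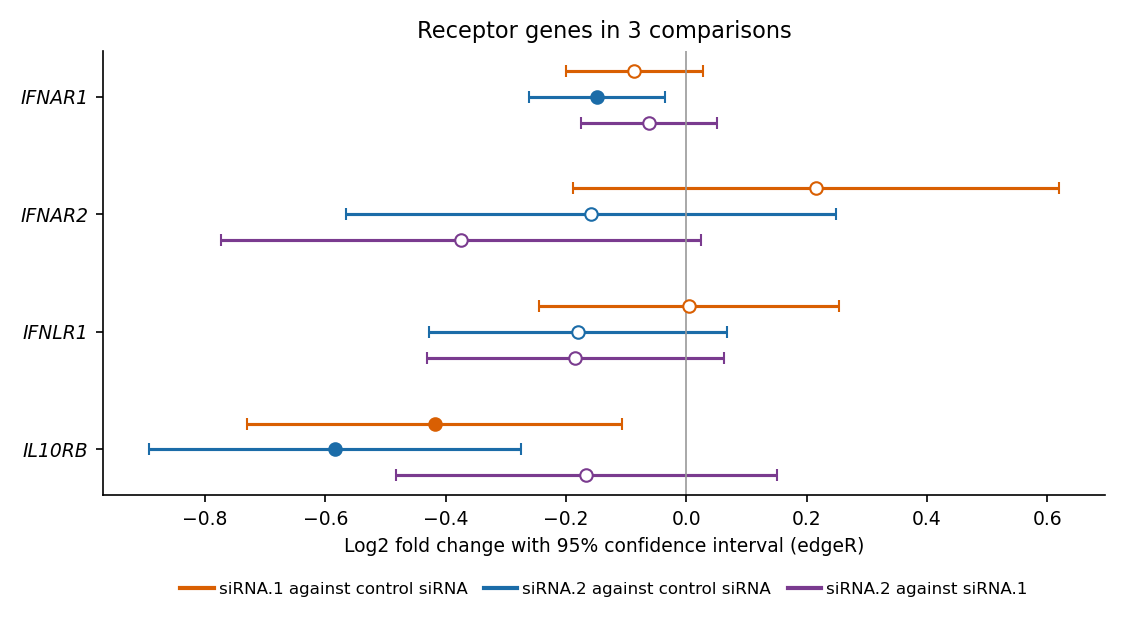
Log2 fold change (x axis) of each receptor gene in the 3 comparisons, with 95% confidence intervals from edgeR (bars). Filled points passed at an adjusted p of 0.05 and open points did not, and the filled points are IL10RB with both siRNAs (-0.42 and -0.58) and IFNAR1 with siRNA.2 (-0.15).

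Levels of IFNAR2 and IL10RB carry an uncertainty of counting. A readthrough gene, IFNAR2-IL10RB, runs over both and in release 44 shares 2038 exonic bases with IFNAR2 and 1732 with IL10RB, with 173 of its 3943 exonic bases its own. The deposited exonic lengths are 4917 bases for IFNAR2 and 4526 for IL10RB. The readthrough gene itself had 0 to 4 counts per library, and the antisense gene IL10RB-DT, which overlaps IFNAR2, had 0 to 13. USF1P1, a pseudogene within IFNAR1, had 0 counts in each library. How reads over shared exons, or over overlapping genes on the other strand, were counted was not given in the sources used here, and their part in the levels was not tested.

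In control cells the order of the mean levels per length was IFNAR1, IFNLR1, IL10RB, IFNAR2, IFNL1, IFNL3, IFNB1 and IFNL2. The ranges of IFNLR1 and IL10RB overlapped, as did those of IFNL1 and IFNL3 and those of IFNL3 and IFNB1, whereas IFNAR2 lay below IL10RB and above IFNL1 in every control library. Among genes with a control mean above 0 FPKM, 87.7% were lower than IFNAR1, 66.5% than IFNLR1, 63.7% than IL10RB and 54.2% than IFNAR2, compared with 47.3% for IFNL1, 36.4% for IFNL3, 25.3% for IFNB1 and 6.72% for IFNL2. With siRNA.1 the mean levels were 4.18 FPKM for IFNL1, 3.26 for IFNL3 and 2.29 for IFNL2, beside 2.74 for IFNLR1, and the ranges of these 4 genes overlapped. With siRNA.2 they were 4.35, 3.82 and 2.04 FPKM, beside 2.38 for IFNLR1, whose range lay below that of IFNL1. IFNB1 was below IFNAR2 in each siRNA.1 library and above it in each siRNA.2 library, where the means were 1.21 and 0.82 FPKM and the ranges overlapped.

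Apart from these genes, the interferon family was largely undetected. Of 18 other interferon genes, 13 had 0 counts in all 9 libraries, namely IFNA2, IFNA4, IFNA5, IFNA6, IFNA7, IFNA10, IFNA13, IFNA14, IFNA16, IFNA17, IFNA21, IFNW1 and IFNG. A count of 0 over the 160993247 counts of the 9 libraries allows up to 3 counts, or 0.0186 CPM. IFNA1, IFNA8 and IFNL4 had at most 2 counts in any library. IFNE, the type I interferon of epithelia, had 34, 39 and 15 counts in control, 23, 46 and 37 with siRNA.1 and 51, 27 and 29 with siRNA.2, which overlap. Its log2 difference from control was 0.18 (adjusted p 0.749) with siRNA.1 and -0.08 (adjusted p 0.905) with siRNA.2 by edgeR. IFNK, known from keratinocytes, had 6, 20 and 14 counts summed over the libraries of control, siRNA.1 and siRNA.2, and passed in neither comparison (adjusted p 0.278 and 0.646).

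Genes that act before and after the interferons are given from lists written with earlier results of these data known. Of 20 genes for the induction of interferon genes, 5 rose and 5 fell with siRNA.1 and 5 rose and 4 fell with siRNA.2, with median log2 fold changes of 0.05 and -0.09. Over all genes tested, 15% rose and 15.2% fell with siRNA.1, and 15.8% rose and 15.1% fell with siRNA.2. The most abundant members of that list were RELA, a subunit of NF-κB, IRF3, a factor that acts on IFNB1, and IFIH1, the RNA sensor MDA5. RELA and IRF3 did not pass with either siRNA, at 0.07 and 0.11 on the log2 scale with siRNA.1 and -0.10 and 0.08 with siRNA.2 (adjusted p by edgeR 0.111 to 0.343). IFIH1 rose by 1.74 (SE 0.06) and 1.77 (SE 0.06), from a mean of 10.01 FPKM in control to 34.1 and 34.3 FPKM.

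Of 6 genes that carry the signal from the receptors, 3 rose and 1 fell with siRNA.1, and 2 rose and 3 fell with siRNA.2. Their median log2 fold changes were 0.21 and 0.05. Of all genes tested, 15% rose and 15.2% fell with siRNA.1, and 15.8% rose and 15.1% fell with siRNA.2. STAT2, a factor activated at the type I and type III receptors, rose by 0.33 and 0.22 (SE 0.05 for both), from 17.7 FPKM in control to 22.7 and 20.8 FPKM. STAT3 stood at 0.03 with siRNA.1 (adjusted p by edgeR 0.772) and fell by 0.28 with siRNA.2 (adjusted p by edgeR 5.4e-07). Of 6 genes for feedback on the receptors, 1 rose and 2 fell with siRNA.1, and 1 rose and 3 fell with siRNA.2. Their median was -0.14 for both, and these counts are to be read against the same shares of all genes. USP18, which binds IFNAR2 and dampens its signal, rose by 2.34 and 2.02 (SE 0.09 for both), from 6.99 FPKM in control to 36.0 and 28.7 FPKM. SOCS3, an inhibitor of JAK kinases, fell by 0.22 and 0.35 (SE 0.08 for both), and PTPN11, a phosphatase, fell by 0.39 with siRNA.1 and stood at 0.03 with siRNA.2 (adjusted p by edgeR 0.641).

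Of 25 interferon-stimulated genes, 24 rose with each siRNA and none fell, with median log2 fold changes of 1.92 and 1.78. The direction of the list of stimulated genes was known when it was written, so its count is not independent evidence. Its most abundant members were IFI6, an interferon-induced mitochondrial protein, at 72.6, 657 and 549 FPKM in control, siRNA.1 and siRNA.2, ISG15, a ubiquitin-like modifier, at 100.1, 506 and 425 FPKM, and BST2, the virus-tethering protein tetherin, at 201, 312 and 314 FPKM. Between the siRNAs, 2 of the 25 were higher and 14 lower with siRNA.2, against 6.1% higher and 6.07% lower over all genes tested.

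The 4 receptor genes belong to the family of class II cytokine receptors. Of 8 other members, 6 were tested, of which 3 rose and 1 fell with siRNA.1 (15% and 15.2% of all genes tested) and 2 rose and 1 fell with siRNA.2 (15.8% and 15.1%), with medians of 0.30 and 0.13 on the log2 scale. F3, which codes for tissue factor, stood at 0.02 with siRNA.1 (adjusted p by edgeR 0.799) and fell by 0.15 with siRNA.2. IFNGR1, the ligand-binding chain for interferon γ, rose by 0.16 with each siRNA (SE 0.06 for both). IFNGR2, its partner, fell by 0.20 with siRNA.1 (SE 0.07) and stood at -0.15 with siRNA.2 (adjusted p by edgeR 0.0622).

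Markers of plasmacytoid dendritic cells, which are themselves strong sources of interferon, were mostly at or near 0. Of 5 markers of plasmacytoid dendritic cells, LILRA4 and TCL1A had 0 counts in all libraries, CLEC4C and GZMB had at most 1 count summed over any condition, and IL3RA, with 103, 78 and 92 counts summed over control, siRNA.1 and siRNA.2, passed in neither comparison with control (adjusted p by edgeR 0.336 and 0.288). Of 10 leukocyte markers, 6 were tested, and 4 rose and 1 fell with each siRNA, where 15% of all genes tested rose and 15.2% fell with siRNA.1, and 15.8% and 15.1% did so with siRNA.2. The summed level of the 10 was 5.54 to 6.63 FPKM in control, 7.89 to 8.81 FPKM for siRNA.1 and 7.41 to 8.73 FPKM for siRNA.2. A mean of at least 1 FPKM was reached by 1 of them in control and by 3 with each siRNA. LYZ, lysozyme, had 27, 244 and 328 counts summed over control, siRNA.1 and siRNA.2, FCER1G, an adaptor of Fc receptors, had 9, 52 and 88 and CSF1R, a growth factor receptor of macrophages, had 122, 234 and 242, while LAPTM5, a lysosomal protein of blood cells, had 780, 490 and 475. PTPRC, the pan-leukocyte surface protein CD45, had 15, 72 and 85 counts, and of the defining markers of B and T cells, CD79A had 1, 6 and 3 and MS4A1, CD2 and CD3E had at most 3 in any condition. The part of these markers in the rise of the interferon genes was not tested. Of 5 fibroblast markers 2 were tested, and 0 rose and 1 fell with each siRNA, and of 4 endothelial markers 2 were tested, and both fell with each siRNA. Of the 9 squamous markers, 1 rose and 6 fell with each siRNA, to be read against the shares of all genes given above (15% and 15.2%, 15.8% and 15.1%), as are the counts of fibroblast and endothelial markers.

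For each of the 8 genes, the genes with the most similar pattern were found by Pearson's r of log2(CPM + 1) over the 9 libraries, among 13770 genes with a mean of at least 1 CPM. The points share library, depth and condition, and the values are given as a description. The genes named are the closest of 13770 over only 9 libraries, so high values of r can come from that search alone. The closest were POP1 (r = 0.98) for IFNB1, SLC7A1 (0.99) for IFNL1, GNL2 (0.99) for IFNL2 and VSTM2L (0.98) for IFNL3. For the receptor genes they were DOP1B (0.95) for IFNAR1, SLC30A6 (0.95) for IFNAR2, RIN3 (0.89) for IFNLR1 and GTPBP6 (0.97) for IL10RB. Next in order came EDC3 (0.97) and NME4 (0.96) for IFNB1, TMOD2 (0.99) and FLAD1 (0.98) for IFNL1, IKZF3 (0.99) and SLC16A1 (0.98) for IFNL2, and AKAP10 (0.98) and NAA25 (0.98) for IFNL3. For the receptor genes these were LRATD1 (0.95) and GLUD2 (0.94) for IFNAR1, TONSL (0.94) and MAPK8IP3 (0.94) for IFNAR2, RPS27 (0.87) and SSR2 (0.87) for IFNLR1, and ZNRF1 (0.96) and COX6C (0.95) for IL10RB.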

How the data were processed

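RNA-seq was measured in 9 TE13 libraries, grouped by their labels. According to the study's methods, libraries were made from poly(A)+ RNA, and reads were checked with FastQC, aligned to GRCh38 with STAR and counted per gene with featureCounts. Software versions, the annotation release, strandedness and read length were not given in the sources used here. The deposited counts are the authors' whole-number read counts per gene, not normalized. The deposited FPKM values are the authors' scaling of these counts by the exonic length of the gene and the summed gene counts of the library. The genes and lists described here were chosen with earlier results of these data known.

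Counts were tested with edgeR 4.0.16 (glmQLFit and glmQLFTest, TMM scaling) in R 4.3.3, in a single fit of all 9 libraries without covariates, on the 21397 genes whose mean FPKM over the libraries was 0.1 or more. P-values were adjusted over all of these genes by Benjamini and Hochberg's method, and the threshold was 0.05. All 8 genes passed this filter, and 7 would have passed on the control libraries alone; IFNL2 passed through the siRNA libraries. Standard errors of log2 fold changes were derived from the F statistics. The fit was tested on simulated data in which only genes with higher expected counts were changed. That test does not cover counts as low as those of the interferon genes in control or of LINC00885. No library pair of a condition was close enough to be a duplicate (chi-square per degree of freedom 2.76 to 4.62). Ratios of summed counts, shares and their intervals were computed in Python 3.11.15 with scipy 1.17.1. Alternatives were another scaling or none, no filter or a minimum of 1 FPKM, DESeq2 1.42.0, limma 3.58.1 on log2(FPKM + 0.1) or log2(FPKM + 1), which understates the change of low genes, only the groups compared, a replicate block, each library left out in turn and, added after seeing the data, TMM scaling of the summed interferon counts and the ratios of single interferon genes without each library. Of each list, the 3 genes with the highest mean FPKM over the 9 libraries were named without regard to their change, and 1 gene chosen by this rule is not reported here. Markers, IFNA1, IFNA8, IFNL4 and the targeted gene were named outside that rule, with their values seen. Promoter sequences came from the RefSeq table of GRCh38.p14, in which IFNAR2 was not matched.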

Additional observations from a re-analysis of the deposited data

How the results depend on the processing

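Of the receptor genes, 1 passed with siRNA.1 and 2 passed with siRNA.2. For siRNA.1 the count was 0 with no scaling beyond the total count, with no filter, with DESeq2 and with limma at either pseudocount, and 0 to 1 without each library in turn. With siRNA.2 it was 1 with no filter, 0 with limma at either pseudocount and 1 to 2 without each library in turn. With the replicate block it was 1, where IFNAR1 had an adjusted p of 0.0529 by edgeR. The replicate numbers did not pair the libraries: deviations of libraries with the same number correlated by -0.146 to 0.0690, those with different numbers by -0.0593 to 0.134, and 0 of 9 libraries correlated best with their own number. The block moved no other count of calls by over 1.5 times.

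Genes called between the siRNAs numbered 2604, and 1437 and 1414 with limma at a pseudocount of 0.1 and 1. The mean CPM of the 4 interferon genes was 12.8 times control with siRNA.1 (11.1 to 16.9 without each library in turn) and 14.0 times with siRNA.2 (12.1 to 18.4). Small differences turned sign without single libraries: IFNLR1 with siRNA.1 against control (0.0049) ranged up to 0.12 and was -0.0052 without the first control library, -0.089 without the second and -0.051 without the first siRNA.1 library. Between the siRNAs, leaving out libraries in turn gave -0.21 to 0.39 for IFNL1, lowest without the first siRNA.1 library, -0.44 to 0.25 for IFNL2, highest without the third siRNA.1 library, and -0.12 to 0.46 for IFNL3, lowest without the first siRNA.2 library. The cause of these changes was not tested. Low counts of the interferon genes in control limit the precision of each ratio to control.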
